A study of Homo sapiens with 4 samples.

Results

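The genes described here are the nuclear genes for the respiratory chain and ATP synthase, the protein machines of the mitochondrial inner membrane, read by RNA-seq in the human neuroblastoma line SK-N-SH. They were taken by symbol (NDUFA, NDUFB, NDUFC, NDUFS, NDUFV, SDHA to SDHD, UQCR, COX and ATP5 with their numbers and letters), and symbols with a pseudogene ending were dropped. Of 130 such symbols 37 were dropped, which left 93 entries of the 24014 genes of the table. By prefix, 39 entries belonged to complex I, 4 to complex II, 9 to complex III, 23 to complex IV and 18 to complex V. They included 77 that encode a subunit, 12 that encode an assembly or supercomplex factor, 3 that join a subunit gene to its neighbour in a readthrough transcript, and the gene-like copy ATP5L2. The 93 entries held 90 symbols, because NDUFA7, NDUFB8 and UQCR11 were each listed under 2 gene identifiers. Symbols are given as the table spells them, so that ATP5B is today's ATP5F1B. COX4I2, COX6A2 and COX7B2 were not analysed here.

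Complex I passes electrons from NADH to ubiquinone, complex II does so from succinate, complex III hands them on to cytochrome c, and complex IV reduces oxygen with them. Complexes I, III and IV pump protons, and complex V, the ATP synthase, lets them return to make ATP. All but complex II combine nuclear subunits with a few read from mitochondrial DNA, and dedicated factors add haem, copper and iron-sulphur centres. Neurons draw most of their ATP from this chain. NRF1, a transcription factor that the study also examined, is known as a regulator of many of its nuclear genes.

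The cells had been transduced with an empty lentiviral vector (control, 2 libraries) or with a lentivirus for AP1AR-DT, a long non-coding RNA (AP1AR-DT_OE, 2 libraries), and the comparison asks which transcripts differ when that RNA is raised. No time after transduction, selection or clone is given in the labels, and nothing states that the libraries of a group came from separate cultures, so p-values measure only the spread between these libraries. The titles call the control cells WT, and their treatment with the empty vector is given outside the titles. The labels of AP1AR-DT_OE replicate 2 give the RNA a clone suffix that differs from its title, and the title was used. The libraries held 21988065 to 26184599 counts. AP1AR-DT (ENSG00000260526, listed as RP11-73K9.2), the gene whose level was raised, had 3 and 18 counts in control and 680 and 1065 in AP1AR-DT_OE, a Log2FC of 6.63 with SE 0.64 (DESeq2 adjusted p = 3.64e-21). The edgeR quasi-likelihood test gave it a Log2FC of 6.60 with an adjusted p = 0.39. When that edgeR fit was blocked by replicate number the Log2FC was 6.70 (adjusted p = 1.85e-06). Of 12 adrenergic markers 11 were listed and 0 were called, and 10 of 10 mesenchymal markers were listed and 0 were called. PRRX1, a mesenchymal transcription factor, had the smallest unadjusted p among these markers, 0.000987, with an adjusted p = 0.43 in DESeq2, at normalized read counts of 2769.9 and 11358 in control and 1241 and 2246 in AP1AR-DT_OE. The 10 mesenchymal markers ran from a Log2FC of -2.02 for PRRX1 to 0.51 for COL1A2 (median -0.060), with 4 above 0 and 6 below. Of 4 blood cell markers only CD14 was listed, with counts of 0, 8, 5 and 5.

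No respiratory chain gene was called between AP1AR-DT_OE and control. With the DESeq2 Wald test, 0 of 93 entries passed an adjusted p under 0.05, where 33 of 24014 genes of the table did (0.137%). At an unadjusted p under 0.05 the count was again 0 of 93, beside 196 of 24014 genes (0.816%), and the smallest unadjusted p of an entry was 0.0527. The edgeR quasi-likelihood test called 0 of the 90 entries that passed its expression filter, 0 of them at an unadjusted p under 0.05. That fit called 0 of all 17027 genes it tested, so its 0 is not particular to the entries. Of those genes 112 had an unadjusted p under 0.05. The median Log2FC of the 93 entries was 0.056, beside -0.031 for all genes, with 65 entries above 0 and 28 below. Over all 24014 genes 10941 lay above 0 and 13073 below. Among the 82 entries whose normalized read counts averaged at least 50, the median was 0.055 beside -0.021 for the 13298 genes of the table at that level. The median SE of these 82 was 0.51 on the log2 scale, beside Log2FC values of -0.18 and 0.24 at the 10th and 90th percentile of the entries, so differences of this size could not be told from replicate spread.

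The complexes lay close together. The median Log2FC was 0.079 in complex I, -0.10 in complex II, 0.045 in complex III, 0.052 in complex IV and 0.10 in complex V. Within replicate number 1 the median log2 ratio of AP1AR-DT_OE over control was 0.057 over the 93 entries, and within number 2 it was 0.071. These ratios, and those between replicate numbers, were taken on normalized read counts plus 1, and each number holds 1 library per group, so they have no test. The entries together took 0.263% and 0.319% of the counts of the controls and 0.285% and 0.322% of those of the AP1AR-DT_OE libraries. In both groups the library with number 2 had the larger share, and Wilson 95% intervals on counts divided by 4 (counting error only) were at most 0.0047 percentage points to either side. In normalized read counts the order was reversed. The entries then summed to 69245 and 64351 in control and to 71629 and 70359 in AP1AR-DT_OE, so the larger share depends on the scale. In bulk RNA, fewer cells of a type and less RNA per cell cannot be told apart.

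**Figure D1:**
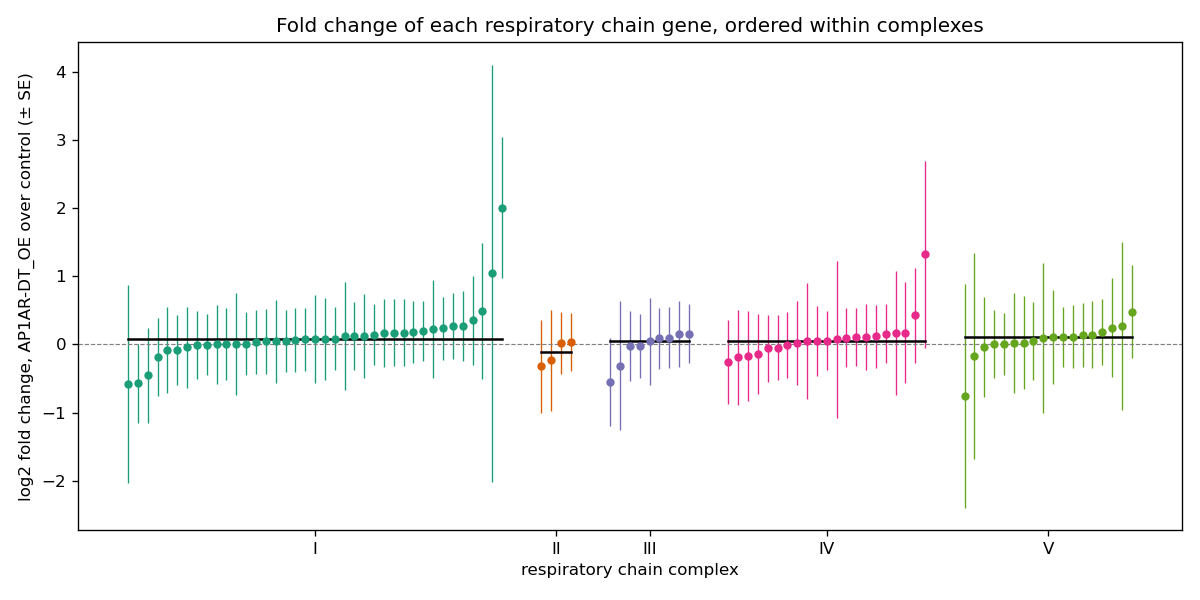
Each point is the Log2FC of 1 entry (AP1AR-DT_OE over control, DESeq2) with its SE as the bar, ordered within complexes I to V; black lines mark the complex medians, between -0.10 and 0.10. Most entries sit near 0, and the entries far from 0 have long bars, as NDUFA7 at 2.01 shows. COX8C and COX7A1, which were at or under the floor of 12 counts in every library, are left out of the points but not of the medians.

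Levels spanned several orders of magnitude. Per length, as the mean normalized read count per kilobase of transcript, the highest entry of each complex was NDUFB7 with 4318 in complex I, SDHC with 2321 in complex II, UQCRQ with 1279.7 in complex III, COX8A with 9359 in complex IV and ATP5D with 4941 in complex V. The lowest were NDUFV2 with 14.8, SDHB with 80.9, UQCRB with 7.42, COX8C with 1.42 and ATP5E with 5.56. The length is that of 1 annotated transcript per gene, and these ranks depend on it. It was 8459 bases for UQCRB and 3610 for ATP5E, beside 494 for COX8A. The median was 232 per kilobase over the 93 entries and 33.9 over all genes. Subunits of 1 complex, which are present in fixed ratios in the assembled enzyme, thus differed widely in their listed levels, and for several of the low ones the counts stood under a pseudogene, as described further on.

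**Figure D2:**
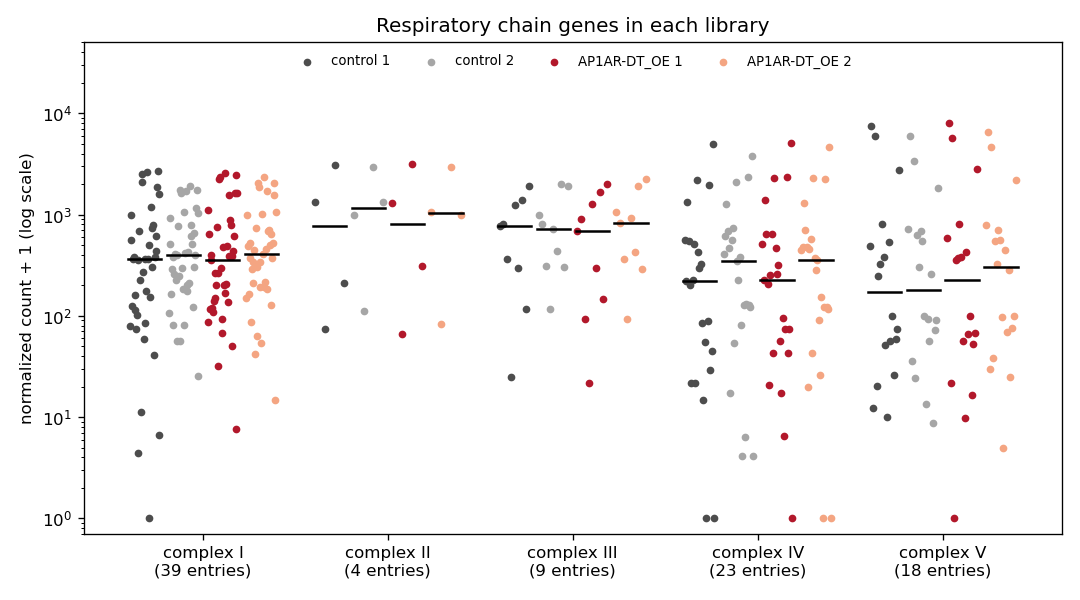
Each point is 1 entry in 1 library, as normalized read count plus 1 on a log axis, grouped by complex; black lines are medians and colours are the 4 libraries. In every complex the spread between entries is far wider than any shift between control and AP1AR-DT_OE.

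In complex I, NDUFV1, NDUFV2 and NDUFS1 form the arm that takes electrons from NADH, and NDUFS3, NDUFS7 and NDUFS8 belong to the part that carries them towards ubiquinone. NDUFV1, which binds the flavin, had normalized read counts of 2687 and 1753 in control and 2447 and 2035 in AP1AR-DT_OE (Log2FC 0.014, SE 0.46). NDUFS1, an iron-sulphur subunit, was at 299.5 and 783 in control and 389 and 694 in AP1AR-DT_OE (Log2FC -0.00019, SE 0.58). For NDUFS1 the number 2 library was the higher one in both groups, and the groups overlapped. NDUFS3 was at 781 and 511 against 786 and 498 (Log2FC -0.0076, SE 0.50), control before AP1AR-DT_OE as in the pairs that follow. NDUFS7 was at 609 and 396 against 609 and 525 (Log2FC 0.17, SE 0.49). Both of these ubiquinone-side subunits overlapped between the groups, and number 1 was the higher control in each. NDUFS8 was at 1868 and 1149 against 1633 and 1563 (Log2FC 0.084, SE 0.46) and likewise overlapped. NDUFV2 had few counts under its own name, 5 and 32 in control and 6 and 14 in AP1AR-DT_OE. Among accessory subunits, NDUFB7 was at 2624 and 1701 against 2592 and 2324 and NDUFA1, which had 1 of the 5 highest Log2FC values among entries with a mean of at least 50, at 78.6 and 106 against 85.6 and 149.9 (Log2FC 0.35, SE 0.65). NDUFA4, which is placed in complex I by its symbol but is known to be bound to complex IV and was chosen after its values were seen, was at 161 and 258 against 109 and 288 (Log2FC -0.081, SE 0.63).

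Complex II consists of 4 subunits and all were listed. SDHA, the flavoprotein that oxidizes succinate, was at 1342 and 994 in control and 1311 and 1066 in AP1AR-DT_OE (Log2FC 0.025, SE 0.46). SDHB, its iron-sulphur partner, was at 72.9 and 109.5 in control and 64.7 and 81.4 in AP1AR-DT_OE (Log2FC -0.32, SE 0.68). SDHC, a membrane anchor, was at 3069 and 2936 in control and 3168 and 2969 in AP1AR-DT_OE (Log2FC 0.031, SE 0.42). SDHC varied little over the libraries, while SDHD, the other anchor, varied most. SDHD was at 211 and 1315 in control and 308 and 992 in AP1AR-DT_OE (Log2FC -0.23, SE 0.74). Both number 2 libraries of SDHD lay above both number 1 libraries, and its log2 ratio of AP1AR-DT_OE over control was 0.55 between the number 1 libraries and -0.41 between those with number 2, so the direction differed between the numbers.

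In complex III, UQCRC1 and UQCRC2 are the large core proteins and UQCRFS1 is the Rieske iron-sulphur protein. UQCRC1 was at 1247 and 719 in control and 1271 and 916 in AP1AR-DT_OE (Log2FC 0.15, SE 0.49). UQCRC2 was at 294 and 437 in control and 294 and 425 in AP1AR-DT_OE (Log2FC -0.026, SE 0.52). Both overlapped between the groups, with UQCRC1 higher in the number 1 libraries and UQCRC2 higher in the number 2 libraries. UQCRFS1 was at 1387 and 1981 in control and 1662 and 1924 in AP1AR-DT_OE (Log2FC 0.09, SE 0.45). UQCRQ, a small subunit near the cytochrome b core, was at 1917 and 1889.9 in control and 1995 and 2250.1 in AP1AR-DT_OE (Log2FC 0.16, SE 0.43). The AP1AR-DT_OE libraries of UQCRQ were above both controls, by less than the SE of the fit. UQCRB, which lies near the ubiquinone site, was at 23.9 and 115 in control and 20.8 and 91.3 in AP1AR-DT_OE (Log2FC -0.31, SE 0.95), and here the number 2 libraries were several times the number 1 libraries.

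In complex IV, the nuclear subunits surround a core read from mitochondrial DNA. COX4I1, a regulatory subunit, was at 2191 and 2094 in control and 2290.3 and 2314 in AP1AR-DT_OE (Log2FC 0.10, SE 0.43). COX5A was at 423 and 349 in control and 463 and 372 in AP1AR-DT_OE (Log2FC 0.11, SE 0.49). COX5B was at 295 and 226 in control and 257 and 283 in AP1AR-DT_OE (Log2FC 0.052, SE 0.52). Only COX4I1 of these had both AP1AR-DT_OE libraries above both controls, and by a small margin. COX6C was at 53.5 and 128 in control and 93.2 and 152 in AP1AR-DT_OE (Log2FC 0.43, SE 0.69). The COX6C values of control 2 and AP1AR-DT_OE 1 crossed, so its groups overlapped. The assembly factors with the COX symbol include COX10 and COX15 of haem A synthesis, COX11 and COX17 of copper delivery and COX18 and COX20, which act on the subunit COX2. Over all 12 assembly and supercomplex factors the median Log2FC was 0.039, from -0.26 for COX11 to 0.17 for COX20, and 8 of 12 lay above 0. This count includes ATP5SL, listed under complex V by its symbol although its product is known as an assembly factor of complex I. For COX20 and COX17 most counts stood under a pseudogene copy, as described further on. With copies added the Log2FC was -0.039 for COX20, -0.19 for COX17 and -0.12 for COX11, so COX20 and COX17 then lay below 0.

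In the isoform pairs of complex IV the widely expressed form held most of the counts. COX6B1 was at 84.3 and 80.2 against 54.8 and 89.3 and its testis form COX6B2 at 13.7 and 3.09 against 16.5 and 24.8, or 158 and 9.26 per kilobase of transcript. COX8A was at 4995 and 3752 in control and 5101 and 4645 in AP1AR-DT_OE (Log2FC 0.16, SE 0.43), whereas its testis form COX8C had counts of 0 and 4 in control and 0 and 0 in AP1AR-DT_OE. COX7A1, the muscle form, had counts of 0 and 7 in control and 5 and 0 in AP1AR-DT_OE. COX8C and COX7A1 were at or under the floor of 12 counts (3 read pairs) in all 4 libraries, so no fold is given for them. COX7A2 was at 87.7 and 130.4 against 72.4 and 122 and COX7A2L, which is known to join complexes III and IV, at 1952 and 2331 against 2327 and 2264 (Log2FC 0.10, SE 0.43). COX7B was at 28.5 and 127 against 41.7 and 120.1 (Log2FC 0.05, SE 0.86). The genes ATP5G1, ATP5G2 and ATP5G3 encode the same mature c subunit, the proton-carrying ring. ATP5G1 was at 321 and 304 against 369 and 323 (Log2FC 0.14, SE 0.49). ATP5G2 was at 804 and 688 against 799.6 and 705 (Log2FC 0.012, SE 0.46). ATP5G3 was at 382 and 550.0 against 376 and 559 (Log2FC 0.0048, SE 0.50). Per kilobase of transcript the mean was 1185 for ATP5G2, 509 for ATP5G1 and 180.4 for ATP5G3, and only ATP5G1 had both AP1AR-DT_OE libraries above both controls.

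In the catalytic head of ATP synthase, ATP5A1 and ATP5B are the alpha and beta subunits and ATP5C1, ATP5D and ATP5E form the central stalk. ATP5A1 was at 485 and 724 in control and 590.1 and 783 in AP1AR-DT_OE (Log2FC 0.18, SE 0.48). ATP5B was at 7560.2 and 5933 in control and 8082 and 6478 in AP1AR-DT_OE (Log2FC 0.11, SE 0.43). ATP5D was at 6010.1 and 3360.2 in control and 5687 and 4608 in AP1AR-DT_OE (Log2FC 0.14, SE 0.47). In ATP5B and ATP5D control 1 was above control 2, and in ATP5A1 it was below. Under their own names ATP5C1 had only counts of 10 and 45 in control and 19 and 29 in AP1AR-DT_OE, and ATP5E 17 and 30 in control and 0 and 38 in AP1AR-DT_OE; the 0 allows up to 12 counts. ATP5J (coupling factor 6 of the outer stalk; ENSG00000154723; chromosome 21, 25716503 to 25735673, GRCh38) was at 531 and 91 in control and 424 and 444 in AP1AR-DT_OE (DESeq2 adjusted p = 1.00; Log2FC 0.48, SE 0.69). This was 311 ± 311 (SD, n = 2) in control and 434 ± 13.6 (SD, n = 2) in the AP1AR-DT_OE libraries. Control 2 was far below the other 3 libraries, and the log2 ratio was -0.32 between the number 1 libraries and 2.27 between those with number 2. Without control replicate 1 the low library was the only control, and ATP5J was then called (Log2FC 2.25, DESeq2 adjusted p = 0.0153). Without control replicate 2 its Log2FC was -0.28.

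Separation between the groups was rare. In 9 of the 82 entries with a mean of at least 50 (11%) both AP1AR-DT_OE libraries were above both controls, beside 5.11% of all genes at that level. In 1 of 82 (1.22%) both were below, beside 4.35% of all genes. These shares are descriptions without a test. The 9 were NDUFA2, NDUFA9, NDUFB2, an entry of NDUFB8, an entry of UQCR11, UQCRQ, COX4I1, ATP5G1 and ATP5J2, and the 1 below was NDUFB4. They are named because their libraries did not overlap, after their values were seen. NDUFA9, an accessory subunit near the ubiquinone arm, was at 226 and 246 in control and 265 and 304 in AP1AR-DT_OE (Log2FC 0.27, SE 0.51). NDUFA2 was at 378 and 383 in control and 400.4 and 517 in AP1AR-DT_OE (Log2FC 0.27, SE 0.48). NDUFB4, a membrane-arm subunit, was at 84.3 and 79.5 in control and 66.9 and 52.6 in AP1AR-DT_OE (Log2FC -0.45, SE 0.70). None of these 3 had an unadjusted p under 0.5. For NDUFB4 the entry held a small part of the counts under its name and that of its copies, and the sum of gene and copies was at 2069 and 2537 in control and 2269 and 2596 in AP1AR-DT_OE (Log2FC 0.079, SE 0.43), so the direction turned. With copies added, the groups also overlapped for NDUFA9 (912 and 1138 against 1086 and 1240), ATP5J2 (2112 and 1886 against 2066 and 2088) and ATP5G1 (384.8 and 345.0 against 414.5 and 384.2). COX4I1 with its copy stayed above both controls (2787 and 2664 against 2915 and 3005).

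Among entries with a mean of at least 50, the 2 highest and the 2 lowest Log2FC values came from symbols listed under 2 identifiers that share exon sequence. NDUFA7, an accessory subunit of complex I, was listed as the gene itself (ENSG00000267855; chromosome 19, 8308768 to 8321375, GRCh38) and as a readthrough with CD320 (ENSG00000167774; chromosome 19, 8308283 to 8321379). The gene had counts of 3 and 72 in control and 182 and 41 in AP1AR-DT_OE (Log2FC 2.01, SE 1.04, unadjusted p = 0.0527, adjusted p = 1.00 in DESeq2). The readthrough had counts of 311 and 516 in control and 239 and 453 in AP1AR-DT_OE (Log2FC -0.08, SE 0.52). The gene was high in AP1AR-DT_OE 1, which is where the readthrough was lowest. Added together, the normalized read counts were 358 and 454 in control and 462 and 490.3 in AP1AR-DT_OE, a log2 ratio of means of 0.23. With all genes on shared exons summed, CD320 included, the Log2FC was 0.12 (SE 0.45).

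NDUFB8, also an accessory subunit, gave a similar picture. The readthrough with SEC31B (ENSG00000255339; chromosome 10, 100505628 to 100529881) had counts of 0 and 261 in control and 185 and 214 in AP1AR-DT_OE (Log2FC 1.04, SE 3.07). The gene (ENSG00000166136; chromosome 10, 100523740 to 100530000) had counts of 316 and 226 in control and 153 and 192 in AP1AR-DT_OE (Log2FC -0.57, SE 0.58). Control 1 held no count under the first identifier and the highest count under the second. Added, the normalized read counts were 359.9 and 376 in control and 371 and 403 in AP1AR-DT_OE, a log2 ratio of means of 0.073. Without control replicate 2, where control 1 is the only control, the readthrough was called (DESeq2 adjusted p = 0.00177) and so was the NDUFA7 gene (Log2FC 5.14, DESeq2 adjusted p = 0.0322); control 1 was under the floor of 12 counts in both, so neither fold is a bound. For UQCR11, a small subunit of complex III, the readthrough with MBD3 (ENSG00000267059; chromosome 19, 1578339 to 1605445) had counts of 317 and 402 in control and 83 and 369 in AP1AR-DT_OE (Log2FC -0.55, SE 0.65). The gene (ENSG00000127540; chromosome 19, 1597169 to 1605473) had counts of 710 and 1037 in control and 821 and 829 in AP1AR-DT_OE (Log2FC 0.10, SE 0.45). Added, they were at 1169.7 and 1110.0 in control and 992 and 1189 in AP1AR-DT_OE, a log2 ratio of means of -0.064. In all 3 symbols the sum differed less between the groups than the entry with the larger absolute Log2FC did.

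**Figure D3:**
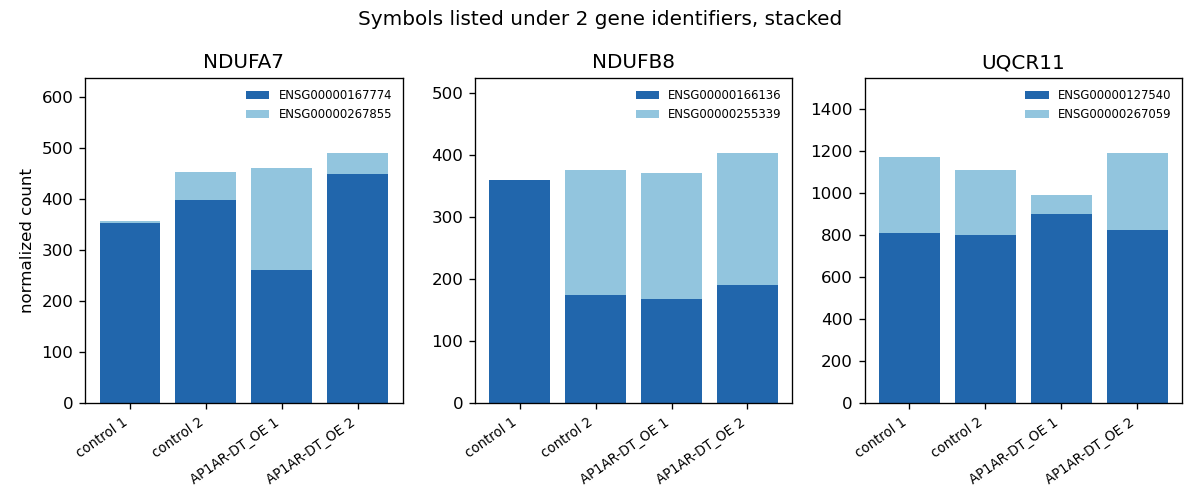
Bars stack the normalized read counts of the 2 identifiers of NDUFA7, NDUFB8 and UQCR11 in each library. The split between identifiers moves from library to library, while the full bars of NDUFB8 run only from 359.9 to 403.

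In all, 19 of the 93 entries share exon sequence with another listed gene on the same strand. The span of 35, introns included, overlaps that of a listed gene on the opposite strand, and 44 have an overlap of either kind. Whether the counting used strand is not stated, so these counts are uncertain in their split.

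Many counts of this pathway stood under pseudogenes. Respiratory chain genes are known for processed copies, intronless DNA copies of their spliced RNA scattered over other chromosomes. The table listed 68 pseudogenes named after 42 of the 93 entries, 65 of them annotated as processed. Their counts came to 24636 and 51901 in control and 28617 and 42164 in AP1AR-DT_OE. This was 28.8% and 38.4%, and 30.5% and 37.3%, of the counts of entries and copies together. Wilson 95% intervals, on counts divided by 4 and covering counting error only, reached at most 0.61 percentage points to either side. For 19 entries the copies held more counts than the gene, and for 12 more than 10 times as many. Reads of a spliced gene and of its copy can be told apart only by the bases in which they differ and by the introns, and how the authors' counting assigned them was not tested.

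The largest such set was COX6A1, a complex IV subunit, whose own counts were 284, 487, 289 and 359 in control 1, control 2, AP1AR-DT_OE 1 and AP1AR-DT_OE 2. COX6A1P2 on chromosome 6 had 6591, 10655, 7499 and 9230 in the same order. For COX7A2 the gene had 77, 169, 66 and 123 and its copies 3009, 4930, 3367 and 4094. The copies were above the gene in every library of both genes. ATP5E, the epsilon subunit, had 17, 30, 0 and 38 against 1031, 4042, 1424 and 3045 under its copy. NDUFV2, a core subunit, had 5, 32, 6 and 14 against 692, 2559, 994 and 1785. ATP5C1, the gamma subunit, had 10, 45, 19 and 29 against 287, 2390, 449 and 1753. Under its own name each of these 3 core genes had at most 45 counts in a library. Divided by the length of the gene's own transcript, gene and copies together reached 620.3 normalized read counts per kilobase for ATP5E, 1656 for NDUFV2 and 1022 for ATP5C1. For ATP5E that transcript has 3610 bases, of which 153 are coding, so these levels depend on the transcript taken. COX6A1 reached 16054 and COX7A2 8333, beside 9359 for COX8A.

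**Figure D4:**
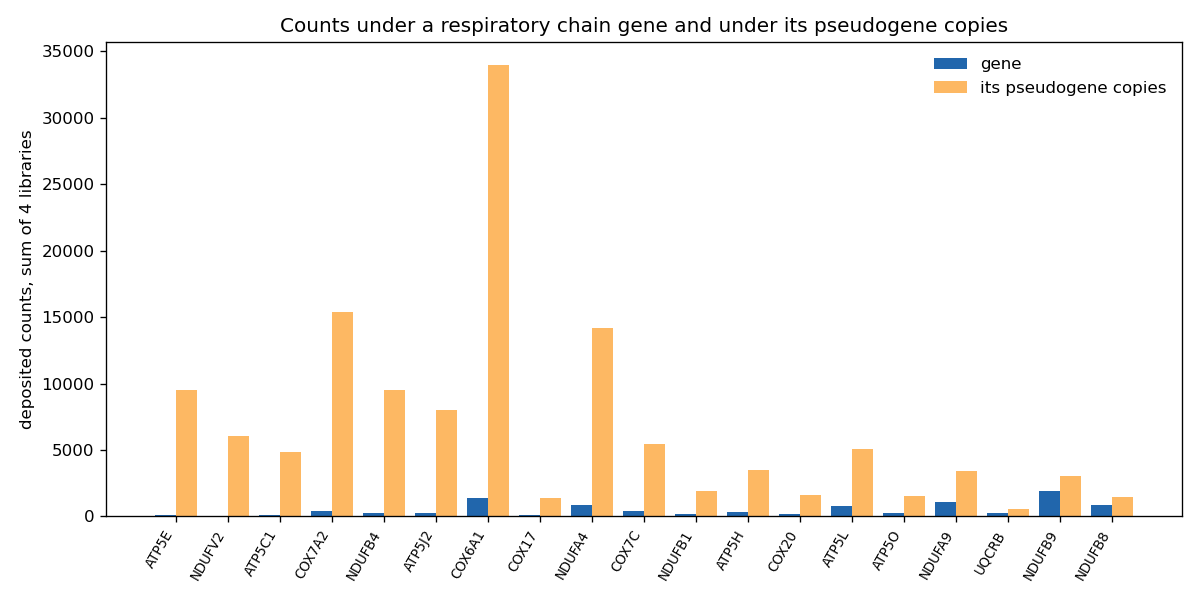
Bars give the deposited counts, summed over the 4 libraries, of the 19 genes whose pseudogene copies held more counts than the gene, ordered by the ratio of copies to gene. Copies of COX6A1 held 33975 counts against 1419 for the gene.

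The likeness of gene and copy can be seen around exon junctions. The 5 genes with the highest ratio of copy to gene counts, among those with at least 1000 copy counts, are shown over 60 coding bases centred on a junction of the spliced gene, 5′ to 3′, from GENCODE v44 transcripts on GRCh37. Capitals mark the bases in which gene and copy differ, and base positions count from the A of the start codon. They were chosen after the counts were seen.
ATP5E, coding bases 3 to 62: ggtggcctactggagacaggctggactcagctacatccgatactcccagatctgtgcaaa
ATP5F1EP2, chr13:28519399-28519458, plus strand: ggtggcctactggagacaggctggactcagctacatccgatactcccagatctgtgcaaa
NDUFV2, coding bases 271 to 330: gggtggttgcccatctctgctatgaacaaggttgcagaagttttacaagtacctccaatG
NDUFV2P1, chr19:53727644-53727703, minus strand: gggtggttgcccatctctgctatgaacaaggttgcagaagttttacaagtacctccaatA
ATP5C1, coding bases 399 to 458: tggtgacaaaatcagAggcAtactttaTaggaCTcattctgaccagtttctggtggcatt
ATP5F1CP1, chr14:54458257-54458316, minus strand: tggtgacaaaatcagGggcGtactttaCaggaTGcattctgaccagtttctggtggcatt
COX7A2, coding bases 79 to 138: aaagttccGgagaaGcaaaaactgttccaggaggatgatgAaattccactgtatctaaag
COX7A2P2, chr4:97824030-97824089, plus strand: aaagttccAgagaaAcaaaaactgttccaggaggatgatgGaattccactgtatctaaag
NDUFB4, coding bases 151 to 210: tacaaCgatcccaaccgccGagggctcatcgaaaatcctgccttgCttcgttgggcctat
NDUFB4P12, chr4:43901129-43901188, plus strand: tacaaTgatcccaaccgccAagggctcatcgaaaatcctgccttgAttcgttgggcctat

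Each window runs across the junction without a break in the copy. The ATP5E window and that of its copy do not differ in any of the 60 bases, and those of NDUFV2 differ in 1, of COX7A2 and NDUFB4 in 3 and of ATP5C1 in 5. Over the aligned coding sequence, identity to the copy with most counts was 96.1% for ATP5E, 98.3% for NDUFV2, 93.2% for ATP5C1 and 98.8% for COX6A1. In the 19 genes whose copies held more counts, the median identity was 96.1% (90.3% to 98.8%). In the other 23 it was 91.7% (83.1% to 98.9%), so the ranges overlapped. SDHD, with 98.3% identity to SDHDP6, had few counts under its copies.

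Adding the copies to their genes left 0 of 93 entries called, 0 of them at an unadjusted p under 0.05. This fit, chosen after these counts were seen, called 33 of 23946 genes, and 195 had an unadjusted p under 0.05. The median Log2FC was then 0.071 over the 93 entries. Over the 42 genes with copies the summed Log2FC ran from -0.29 to 0.40, 30 of 42 above 0. In the fit without sums 10941 of all 24014 genes lay above 0. COX6A1 with its copy was at 7827 and 8598 in control and 8541 and 9519 in AP1AR-DT_OE (Log2FC 0.14, SE 0.42). NDUFA4 with its copy was at 2349 and 4304 in control and 2683 and 4891 in AP1AR-DT_OE (Log2FC 0.19, SE 0.51). NDUFV2 with its copy was at 794 and 1999.5 in control and 1097 and 1786 in AP1AR-DT_OE (Log2FC 0.045, SE 0.54), where the gene alone had given -0.58. No sum passed the test. Of the 68 copies, 0 were called and 0 had an unadjusted p under 0.05 in DESeq2. Over all 24014 genes these shares were 0.137% and 0.816%.

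Larger differences ran between the replicate numbers. In 37 of the 82 entries with a mean of at least 50 (45.1%) both number 2 libraries lay above both number 1 libraries, beside 38.9% of all genes, and in 25 (30.5%) both lay below, beside 41.6% of all genes. What a replicate number stands for is not given in the labels. Transcript GC content and the log2 ratio of number 2 over number 1 were related with Spearman's rho = -0.71 in control and -0.66 in AP1AR-DT_OE, over 82 entries. Over 13284 genes of the table these were -0.78 and -0.66. They are correlations across genes of the same libraries, given as a description. Of the 28 entries lowest in GC, 24 had both number 2 libraries above, with a median log2 ratio of 1.24 between the controls. Of the 27 highest in GC, 16 had both below, with a median of -0.36.

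Genes on both sides of this difference can be named. SDHD (39.8% GC) and NDUFS1 (41.8%) were high in the number 2 libraries. NDUFA5, an accessory subunit of complex I chosen after its values were seen because it has the lowest GC of the 82 entries (34.6%), was at 72.9 and 405 in control and 140.4 and 340.4 in AP1AR-DT_OE. ATP5D (69.5% GC), NDUFS7 (66.9%) and UQCRC1 (58.3%) were high in the number 1 libraries of both groups. Between the groups, the log2 ratio went with GC in opposite directions, at rho = -0.31 between the number 1 libraries and 0.50 between those with number 2. With a correction for GC content 0 of 93 entries were called and the median Log2FC was 0.085, beside -0.011 for all genes. The share of this GC-linked difference in any single Log2FC was not tested.

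**Figure D5:**
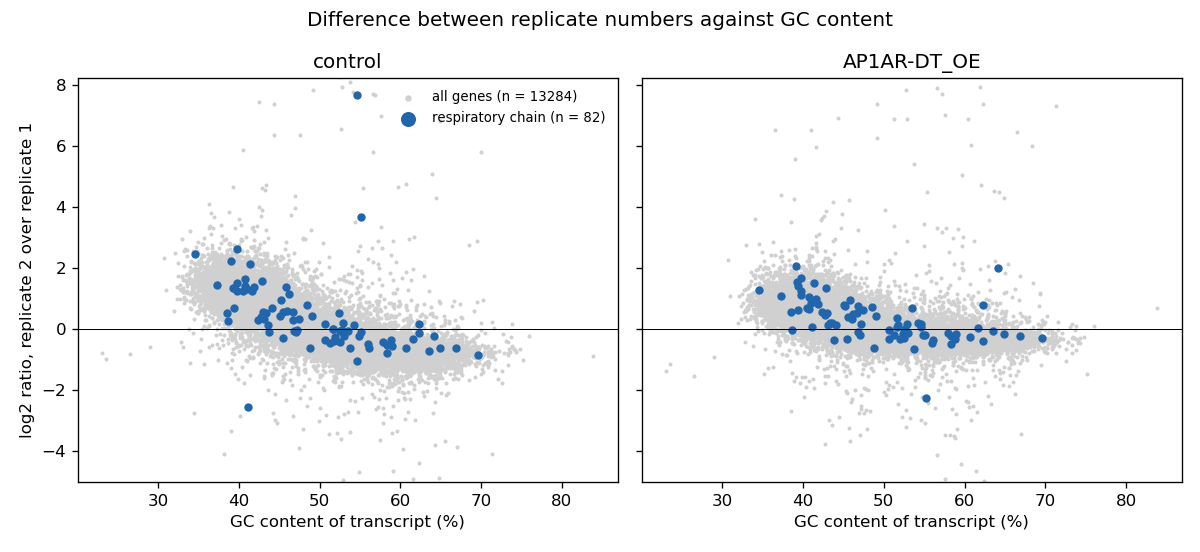
Each point is 1 gene whose normalized read counts averaged at least 50; the x axis is the GC content of its transcript in percent and the y axis the log2 ratio of replicate 2 over replicate 1, in the controls (left) and in AP1AR-DT_OE (right). Respiratory chain entries (blue, 82) fall with GC as all genes do (grey, 13284, of which 38 and 36 lie beyond the axis).

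Promoters of these genes were read for the letters of an NRF1-type element, since NRF1 is known to act on this pathway. NRF1 itself did not pass the test, with 573 and 685 counts in control and 665 and 597 in AP1AR-DT_OE, a Log2FC of 0.16 with SE 0.47 (adjusted p = 1.00 in DESeq2). RefSeq promoters of GRCh38.p14, from 250 bases before to 50 after the start, were matched by name for 73 of the 90 symbols. The letters GCGCATGCG, on either strand, stood in 13 of 73 (17.8%), beside 638 of 27305 genes of the promoter table (2.34%). With a closing C the letters read the same on both strands, and these stood in 6 of 73 (8.22%) beside 414 of 27305 (1.52%). With any base in place of the T of that longer form the counts were 18 of 73 (24.7%) and 1905 of 27305 (6.98%). The 3 searches overlap. A match of letters does not show binding, and other promoter classes were not set apart.

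By complex, the 9 letters were found in 5 of 31 genes of complex I, 1 of 3 of complex II, 0 of 7 of complex III, 3 of 20 of complex IV and 4 of 12 of complex V. The windows below hold the longer form upstream of the start, in capitals, with up to 20 bases on each side, 5′ to 3′ along the gene on GRCh38.p14, and are shown because they carry every letter searched.
NDUFB4, chr3:120596157-120596206, plus strand: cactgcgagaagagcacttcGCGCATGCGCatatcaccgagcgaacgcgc
SDHD, chr11:112086743-112086792, plus strand: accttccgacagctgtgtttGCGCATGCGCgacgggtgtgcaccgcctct
COX17, chr3:119677493-119677542, minus strand: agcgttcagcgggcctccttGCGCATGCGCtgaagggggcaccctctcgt
COX18, chr4:73069734-73069783, minus strand: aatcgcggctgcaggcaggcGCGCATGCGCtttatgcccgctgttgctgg
ATP5C1, chr10:7788135-7788176, plus strand: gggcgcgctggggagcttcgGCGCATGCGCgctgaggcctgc

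The sixth gene, NDUFA8, is not shown because the first promoter listed for it, from which windows were taken, held no match wholly upstream of the start. The genes of these windows, named for their sequence, did not share a direction. COX17 was at 20.5 and 16.2 against 19.7 and 18.9 (Log2FC 0.075, SE 1.15), and with its copy, which held most of the counts, at 225 and 488 in control and 218 and 407 in AP1AR-DT_OE (Log2FC -0.19, SE 0.58), so the direction turned. COX18 was at 224 and 558 against 253 and 459 (Log2FC -0.14, SE 0.59). NDUFA8 was at 679.9 and 761 against 755 and 740.4 (Log2FC 0.053, SE 0.45). SDHD had a Log2FC below 0 with and without its copies, ATP5C1 above 0 with and without, and NDUFB4 below 0 alone and above 0 with its copies, none past the test. The median Log2FC was 0.012 over the 13 genes with the 9 letters and 0.081 over the 60 without.

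Other genes of the pathway that the symbols do not take were likewise not called. Of 64 such genes 0 passed the test, beside 33 of 24014 genes of the table (0.137%). Their Log2FC was above 0 in 33 and below 0 in 31 (median 0.012). Over all genes 10941 lay above 0 and 13073 below. The 64 genes comprised 18 other genes of complex I, mostly assembly factors, 4 assembly factors of complex II and 7 further genes of complex III. The rest were 15 of complex IV, 6 of complex V, cytochrome c and 13 genes of the mitochondrial genome. Those named here were chosen after their values were seen. CYC1, the haem-bearing cytochrome c1 of complex III, was at 3012 and 1533 in control and 2198 and 2052 in AP1AR-DT_OE (Log2FC -0.10, SE 0.48). CYCS, the mobile carrier cytochrome c, was at 344 and 1419 in control and 395 and 1112 in AP1AR-DT_OE (Log2FC -0.23, SE 0.67). CYCS was higher in both number 2 libraries, as SDHD was, and CYC1 in neither. PET117, a complex IV assembly factor, had counts of 58 in control 1 and 0 elsewhere (unadjusted p = 0.121).

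The 13 subunit genes of mitochondrial DNA, which are joined to the nuclear subunits in the finished complexes, had a median Log2FC of -0.068, with 3 above 0 and 10 below. They held 5.66% and 5.26% of the counts of the controls and 5.69% and 4.88% of those of the AP1AR-DT_OE libraries, with Wilson intervals of at most 0.019 points to either side. MT-CO1, a catalytic subunit of complex IV, had counts of 268212 and 292503 in control and 277531 and 227196 in AP1AR-DT_OE (Log2FC -0.0032, SE 0.44). MT-ND1, a complex I subunit, had counts of 111804 and 109856 in control and 106447 and 86201 in AP1AR-DT_OE (Log2FC -0.068, SE 0.45). In normalized read counts all 13 were lower in both number 2 libraries than in both number 1 libraries. The same held for 41.6% of all genes with a mean of at least 50. MT-CO1 was at 305475 and 225633 in control and 304421 and 225501 in AP1AR-DT_OE. The nuclear entries lay on both sides. The library preparation and RNA selection behind the share of mitochondrial counts were not examined here.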

How the data were processed

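RNA from 4 SK-N-SH libraries (2 control, 2 AP1AR-DT_OE, grouped by title) was sequenced in read pairs. The authors aligned reads to hg19 with HISAT2 and took a count per gene from StringTie output with its Python script. The deposited values are raw counts without normalization; the annotation behind them is not given in the sources used here. The submitters' processing notes instead list TopHat2 2.0.4, SAMtools, HTSeq, Cuffdiff and edgeR 2.6.12, with hg19. The deposited coordinates of genes are GRCh38. The table also holds the authors' fold changes and p-values, which were not used.

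Low values piled up at 4 counts (3287 entries of the table, against 2136 at 3 and 1509 at 5), so a read pair was worth about 4 counts, and the limit that a 0 allows was set at 3 pairs, or 12 counts; it covers counting error only. Depth was 21988065 to 26184599 counts per library.

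All 24014 genes were fitted with DESeq2 1.42.0 in R 4.3.3 (Wald test, two-sided, no covariate, Benjamini-Hochberg adjustment over all genes, default independent filtering), and the entries were read from that fit. Log2FC is AP1AR-DT_OE over control. Normalized read counts are counts divided by size factors. GC content, length and exon overlap came from GENCODE v44 mapped to GRCh37, for 23954 genes. Pseudogenes were matched to entries by annotated name. The fit was tested on simulated data. Named genes were core subunits, isoform families, the 5 highest and 5 lowest Log2FC at a mean of at least 50, and the highest and lowest per length in each complex; other genes were chosen after their values were seen or for their sequence, and 1 core subunit is not reported here. The alternatives were edgeR 4.0.16 (quasi-likelihood), TMM factors, a filter of at least 10 counts in 2 libraries, the replicate number as a block, a GC correction (lowess, span 0.3), counts divided by 4, overlapping genes summed, leaving out each library and, chosen after seeing the data, pseudogenes summed. The members and lists were chosen with earlier results of these data known.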

Additional observations from a re-analysis of the deposited data

How the results depend on the processing

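The count of respiratory chain genes called was 0 in the fit with all libraries and under every alternative that kept them all. Leaving out 1 library gave 0 to 2: 1 without control replicate 1 (ATP5J) and 2 without control replicate 2 (NDUFA7 and NDUFB8, an entry each), where the lone control is assumed to vary like the other libraries. The median Log2FC of the 93 entries was 0.056, and 0.045 to 0.096 under the other alternatives, and -0.066 to 0.17 with a library left out. Counting only the 77 that encode a subunit gave 0 called and a median of 0.071. Over all genes, 33 were called, against 0 by edgeR's quasi-likelihood fit (112 had an unadjusted p under 0.05), 57 with the GC correction, 60 with the GC correction and replicate block, 15 with counts divided by 4, 14 with overlapping genes summed, and 45 to 90 with a library left out; the cause was not tested. With the replicate number as a block, DESeq2 called 37 genes and 0 entries, and edgeR 44 genes and 0 entries. Libraries of the same number deviated together (r = 0.34 over the entries, 0.49 over 13298 genes). No label calls the number a batch, and with 2 pairs the source of this likeness was not tested. The median SE was 0.51 on the log2 scale for entries with a mean of at least 50; how far depth or the number of libraries set the count of calls was not tested.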
